A study of Rattus norvegicus with 14 samples.

Results

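The comparison set the aortas of 4 control rats given vitamin D against those of 5 control rats left untreated, all with intact kidneys, and asked what vitamin D by itself does to the transcripts of the vessel wall. It used 9 of the 14 libraries of the series and 9693 of the 17019 genes in the deposited table, those with at least 1 FPKM (fragments per kilobase of transcript, scaled to the size of the library) in at least 4 of the 9 libraries. All animals were male Dark Agouti rats and each library came from the aorta of 1 rat. The rats on vitamin D carry the numbers 36, 37, 38 and 39, and the untreated control rats 41, 42, 43, 44 and 46. For the control rats on vitamin D, the compound, its dose, the length of treatment and the length of study are not given in the sources used here. The other 5 rats of the series had lost most of their kidney tissue and received alfacalcidol, a vitamin D prodrug, for the final 6 of their 14 weeks, with 3 doses of 30 ng each week. The untreated control rats were killed after 14 weeks. A diet rich in phosphate belongs to the model, but which rats ate it is not stated, so any part of diet cannot be told apart here.

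Active vitamin D binds the vitamin D receptor, a nuclear receptor that pairs with a retinoid X receptor and acts on genes near its DNA motif. The classic targets serve calcium and phosphate handling in gut, kidney and bone, and include the hydroxylase that breaks the hormone down. In arteries, vitamin D in excess is known to promote calcification of the media, the layer of smooth muscle cells, collagen and elastin that forms most of the aortic wall.

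The tissue carried its own markers in both groups. Acta2, the actin of smooth muscle, had 6297, 5039.98, 7558 and 8293 FPKM in rats 36 to 39, against 9164, 5996, 6748, 7802 and 5881 FPKM in the control rats. The endothelial adhesion protein gene Pecam1 lay at 47.6 to 74.6 FPKM with vitamin D and 76.3 to 103 FPKM in control aortas. Fat cell transcripts were present as well. Plin1, which coats the lipid droplet of fat cells, lay at 281 to 614 FPKM with vitamin D and 143 to 477 FPKM in control. Per the labels' protocol, connective tissue and blood were taken off the vessel by hand. Whole reads recovered from the FPKM values summed to between 1383335 in rat 37 and 2852357 in rat 38, with a median per gene of 38 reads in the shallowest of the 9 libraries and 78 in the deepest. Neither these sums (exact permutation test, 2-sided, p = 0.698) nor the FPKM totals (p = 0.349) differed between the groups beyond the spread between rats. The median correlation between libraries across genes was 0.967 within the vitamin D group, 0.969 within the control group and 0.958 between the groups. Because these are bulk samples, fewer cells of a type and less RNA per cell cannot be told apart.

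With vitamin D, the collagen genes Col1a1 and Col3a1 and the procollagen protease gene Bmp1 fell, and the fat cell product Cfd rose. Over 16 alternative settings of the fit, Cfd kept its call in 5, and Col1a1, Col3a1 and Bmp1 in 7 each. Interferon response genes were lower in nearly every member, though none passed the test by itself. Fat, fatty acid and mitochondrial genes were higher on average, but not in every rat. Classic vitamin D targets and calcification genes showed few differences beyond the spread between rats.

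Limma (a linear model across all genes, on log2(FPKM + 1)) called 13 of the 9693 genes at a Benjamini-Hochberg adjusted p under 0.05, which is 0.134%. Of these, 1 was higher with vitamin D (0.0103% of the tested genes) and 12 were lower (0.124%). At an unadjusted p under 0.05 stood 1782 genes, 895 higher and 887 lower, and 255 genes had an adjusted p under 0.1. In 554 genes (5.72%) the values of the groups did not overlap, with all rats on vitamin D above all control rats in 230 (2.37%) and below them in 324 (3.34%). All 13 called genes were among these. The median difference over all tested genes was 0.0002 on the log2 scale. The number of calls rested on single rats. It was 378 without control rat 46 and 393 without rat 39 of the vitamin D group, 4 without rat 38, 2 without control rat 42, 43 or 44, and 1 without rat 36. Without control rat 41 or rat 37 limma called 0, with 1585 and 1551 genes at an unadjusted p under 0.05.

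**Figure D1:**
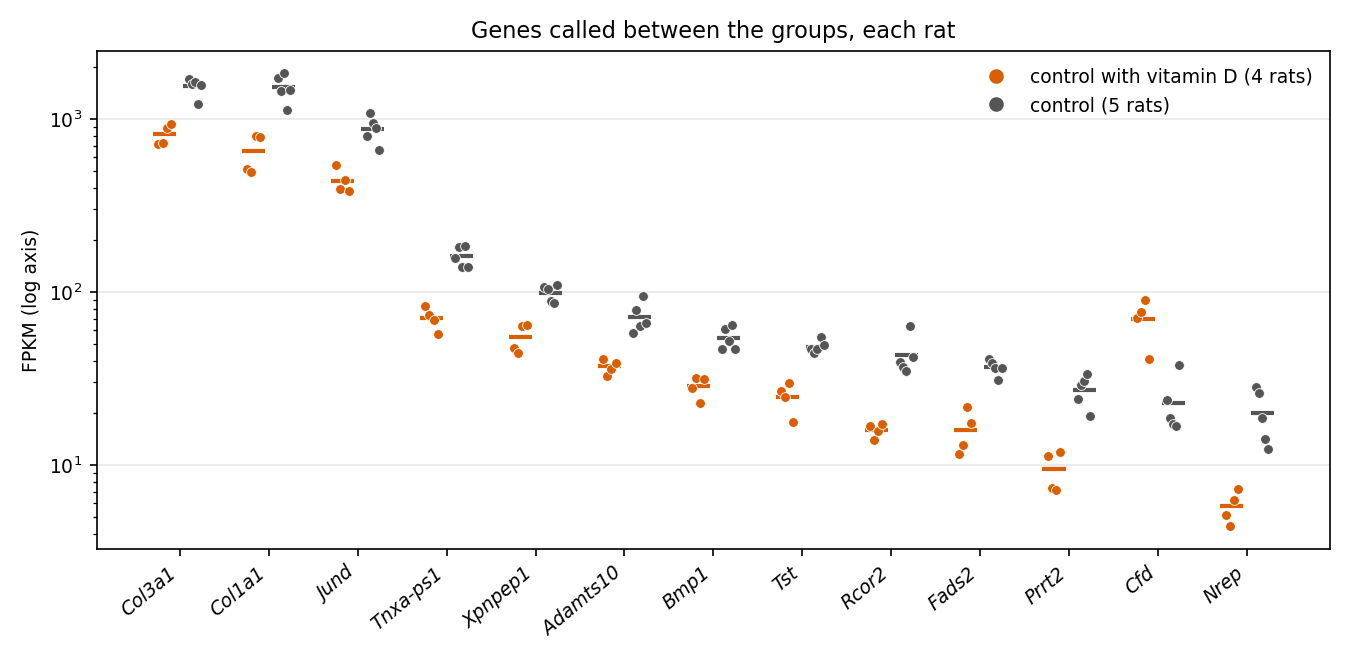
FPKM of each rat, on a log axis, for the 13 genes called between control rats with vitamin D (orange, 4 rats) and control rats (grey, 5 rats); bars are group means. In every gene the points of the groups do not overlap, and Cfd is the one gene that is higher with vitamin D.

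The genes that fell included chains of both main fibrillar collagens of the aortic wall. Col1a1, which codes for the alpha 1 chain of type I collagen (chr10:82563433-82580364 in the rn5 build of the files), had 515, 496, 798 and 785 FPKM in rats 36 to 39, against 1725, 1442, 1828, 1118 and 1467 FPKM in control rats 41 to 46. Every rat on vitamin D lay below every control rat. Means were 648 ± 165 FPKM with vitamin D and 1516 ± 277 FPKM in control (SD, n = 4 and 5; log2 difference -1.24, SE 0.20, limma adjusted p = 0.0479). Col3a1, the chain of type III collagen (chr9:51689491-51725418), had 710.2, 724, 884 and 933 FPKM with vitamin D, against 1691, 1584, 1633, 1223 and 1557 FPKM in control aortas (log2 difference -0.92, SE 0.15, adjusted p = 0.0489). The control rat with least Col3a1, rat 44, still exceeded the highest rat on vitamin D. Of 7 tested fibrillar collagen genes 2 fell and 0 rose by limma's test, beside 0.124% of all tested genes called lower. All 7 had negative differences, with a median of -0.38. Wholly below control lay the same 2 of 7 (28.6%, against 3.34% of all tested genes). Col27a1 (10.3 FPKM with vitamin D and 16.1 FPKM in control) and Col5a1 (67.4 FPKM with vitamin D and 86.9 FPKM in control) did not pass the test. Col5a2 differed by -0.19 (SE 0.14). Col1a2, the partner chain of Col1a1, is listed at 0 in all 9 libraries, which in a tissue with this much Col1a1 can be a failed estimate. Among 9 tested genes of other collagens 0 were called and 0 were without overlap, with 5 positive and 4 negative differences and a median of 0.01.

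Bmp1 codes for the protease that removes the C-terminal propeptide of fibrillar procollagens. It had 27.9, 31.7, 23 and 31.6 FPKM with vitamin D, against 46.9, 61, 51.8, 64.1 and 46.7 FPKM in control aortas (log2 difference -0.90, SE 0.14, adjusted p = 0.0469). No rat on vitamin D reached the lowest control rat. Adamts10, a secreted protease linked to fibrillin microfibrils, had 41.2, 32.7, 36.1 and 38.7 FPKM with vitamin D, against 57.9, 78.9, 63.1, 94.1 and 66.2 FPKM in control (log2 difference -0.92, SE 0.15, adjusted p = 0.0479). Its groups were also apart, by 32.7 to 41.2 against 57.9 to 94.1 FPKM in control. Of 24 collagen processing genes 1 fell, none rose, and the median difference was -0.05, close to that of all genes. Sparc, a collagen-binding matrix protein, averaged 5368 ± 646 FPKM with vitamin D and 8769.5 ± 1184 FPKM in control without overlap, but did not pass (adjusted p = 0.103).

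Among 24 matrix proteases and their inhibitors 1 gene fell, Adamts10, and the median difference was -0.21. The members wholly below control numbered 4 of 24 (16.7%), against 3.34% of all tested genes. These were Adamts10, Adamtsl4 (43.3 to 83.5 FPKM with vitamin D and 90.6 to 151 FPKM in control), the gelatinase Mmp2 (133 to 166 FPKM with vitamin D and 200.1 to 270.4 FPKM in control) and the proteoglycan-cleaving Adamts9 (6.83 to 11.8 FPKM with vitamin D and 13.1 to 16.8 FPKM in control). Adjusted p of the last 3 was between 0.0835 and 0.0854. Of 16 elastic fibre genes 0 passed and the median difference was -0.27. Eln, tropoelastin, averaged 4693 ± 1628 FPKM with vitamin D and 7389 ± 1409 FPKM in control (log2 difference -0.70, SE 0.24, adjusted p = 0.17). Rat 39, at 6951 FPKM, lay within the control range.

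Fibroblast markers were lower on average, like the fibrillar collagens. Of 16 tested markers (21 listed) 14 had negative differences, 0 passed limma's test, and the median was -0.51. Osr1, a transcription factor of connective tissue, had 150.2, 121, 99.6 and 199 FPKM with vitamin D, against 241, 299.96, 312, 219 and 302 FPKM in control (adjusted p = 0.0835). Dpt, dermatopontin of the collagen matrix, had 189, 124, 123 and 172 FPKM with vitamin D, against 243, 278, 254, 208 and 252 FPKM in control (adjusted p = 0.0835). Both genes were without overlap, and were the 2 of 16 members wholly below control (12.5%, against 3.34% of all tested genes). Wholly above control lay 1 of 16 (6.25%, against 2.37% of all tested genes). Without control rat 44 the count below was 9 of 16, where 4.66% of all tested genes lay wholly below. The summed FPKM of the list ran over 3513 to 4442 with vitamin D and 3734 to 5239 in control. The control rat lowest in the list, rat 44, was also the lowest control rat for Col1a1 and Col3a1. Its mean log2 level in the list (6.26) lay below those of rats 36, 38 and 39 on vitamin D (6.43, 6.31 and 6.51). Its Col1a1 and Col3a1 were still above those of every rat on vitamin D. Cd34 is listed at 0 in all 9 libraries. The part of fibroblast content in the collagen differences was not tested.

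The other called genes have varied roles. Jund, a subunit of the AP-1 transcription factor (chr16:20342095-20343931), had 541, 395, 440.3 and 381 FPKM with vitamin D, against 794, 1086, 942, 884 and 663 FPKM in control (log2 difference -0.98, SE 0.16, adjusted p = 0.0489). Fads2, the delta-6 desaturase of polyunsaturated fatty acid synthesis, had 11.6, 13.1, 21.5 and 17.4 FPKM, against 40.8, 38.7, 36.2, 31.1 and 36.3 FPKM in control (log2 difference -1.19, adjusted p = 0.0314). Both were clear of the control range in every rat. The deposited locus of Fads2 spans 240314 bases and is shared by 6 genes, against 39914 bases of the RefSeq gene; whether reads of its neighbours enter its value was not tested. Tst, a mitochondrial sulfur transferase, averaged 24.7 ± 5.05 FPKM with vitamin D and 48.3 ± 4.05 FPKM in control (log2 difference -0.96, adjusted p = 0.0382). Xpnpep1, an aminopeptidase that cleaves ahead of proline, averaged 54.9 ± 10.4 FPKM with vitamin D and 98.8 ± 11 FPKM in control (log2 difference -0.85, adjusted p = 0.0489). Nrep, a small intracellular protein, had 5.18, 4.42, 6.25 and 7.28 FPKM with vitamin D, against 28.1, 25.9, 18.8, 14.2 and 12.4 FPKM in control (adjusted p = 0.0382). Among the 10 called genes with recovered reads it had the fewest, with a median of 7 recovered reads per library with vitamin D and 17 in control. Prrt2, a membrane protein known from synapses, averaged 9.43 ± 2.49 FPKM with vitamin D and 27.3 ± 5.66 FPKM in control (log2 difference -1.45, adjusted p = 0.0251).

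Both genes with the smallest p carry a limit of annotation. Tnxa-ps1 averaged 70.4 ± 10.6 FPKM with vitamin D and 160.2 ± 21.5 FPKM in control (log2 difference -1.18, SE 0.14, adjusted p = 0.0134). It is a pseudogene of tenascin X. Its deposited locus of 215228 bases is shared by 16 genes, and reads may be shared with the intact gene, so its fall is uncertain as to source. Rcor2, a corepressor of the REST and LSD1 complex, had 16.8, 13.9, 15.7 and 17.3 FPKM with vitamin D, against 39.5, 36.8, 35.1, 63.2 and 42.2 FPKM in control (log2 difference -1.36, SE 0.16, adjusted p = 0.0134). The table places it on chromosome 15 of rn5, whereas RefSeq has Rcor2 on chromosome 1 of the later build GRCr8. Such a disagreement concerned 95 of 8774 tested genes that could be matched by symbol. The transcript behind the Rcor2 values is therefore uncertain.

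Cfd, complement factor D or adipsin, is a serine protease secreted by fat cells, and was the called gene that rose. It had 70.5, 76.5, 89.8 and 40.7 FPKM in rats 36 to 39, against 23.6, 18.7, 17.2, 16.9 and 38 FPKM in control rats 41 to 46. The lowest rat on vitamin D, 39, was just above the highest control rat, 46. Means were 69.4 ± 20.7 FPKM with vitamin D and 22.9 ± 8.85 FPKM in control (log2 difference 1.57, SE 0.26, adjusted p = 0.0489). In the authors' deposited table its q value for this pair of groups was 0.356, above 0.05. The deposited locus of Cfd spans 252681 bases and is shared by 16 genes of the table, against 1724 bases of the RefSeq gene. Whether reads of its neighbours enter the Cfd value was not tested. The promoter is shown because it was 1 of 2 promoters, among the 7 of the 13 called genes that RefSeq (GRCr8) gave, with a 6-base core of the vitamin D receptor motif.
Cfd promoter, chr7:10465447-10465746, minus strand: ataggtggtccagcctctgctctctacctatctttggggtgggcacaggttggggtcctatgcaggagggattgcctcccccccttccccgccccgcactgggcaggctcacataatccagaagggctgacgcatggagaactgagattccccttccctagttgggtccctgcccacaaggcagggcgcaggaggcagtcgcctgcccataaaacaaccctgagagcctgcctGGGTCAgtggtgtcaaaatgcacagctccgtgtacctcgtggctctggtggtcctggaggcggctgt
The capitals mark the core GGGTCA at -17 from the transcription start; the window runs over 250 bases before and 50 after it. The cores searched on both strands were AGGTCA, then AGTTCA, likewise GGGTCA, and lastly GGTTCA. At least 1 of them lay in 36.3% of the promoters of tested genes and in 44.4% of all 33469 promoters, so a match is common and is a description only. The full motif, 2 cores in the same direction with 3 bases between them, was found in none of the 7, and in 0.0832% of the promoters of tested genes.

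Fat cell genes as a list were higher on average. Of 24 tested members 20 had positive differences, 1 rose (Cfd), 0 fell, and the median difference was 0.94. Plin1 had 509, 423, 614 and 281 FPKM with vitamin D, against 157, 143, 212, 181 and 477 FPKM in control (log2 difference 1.06, SE 0.33, adjusted p = 0.139). Aqp7, the glycerol channel of fat cells, had 69.9, 77.5, 110.1 and 32.8 FPKM, against 23.5, 21.7, 31.1, 30.3 and 43.8 FPKM in control. Gpd1, which makes glycerol phosphate, averaged 551 ± 278 FPKM with vitamin D and 229 ± 120.2 FPKM in control. In these genes rats 36, 37 and 38 were high, while rat 39 lay within the control range, and control rat 46 stood apart from its own group. Lipid synthesis showed the same rats. Fasn, fatty acid synthase, had 93.3, 107, 195 and 56.1 FPKM with vitamin D, against 38.3, 32.1, 45.7, 18.5 and 84 FPKM in control. Acly, which supplies its acetyl groups, had 124, 77.7, 121 and 54.4 FPKM with vitamin D, against 28.9, 27.3, 38.4, 18.2 and 82.8 FPKM in control. Neither passed (adjusted p = 0.123 and 0.109). Slc25a1, the mitochondrial citrate carrier, was wholly above control (23.1 to 34 against 14 to 22.4 FPKM in control, adjusted p = 0.0854). Within the synthesis list of 17 genes the desaturases were split. Fads2, with the limit of its shared locus, fell, and Fads1 averaged 13.9 ± 2.12 FPKM with vitamin D and 20.6 ± 3.95 FPKM in control (adjusted p = 0.135). The desaturase gene Scd1 was higher on average, at 273 FPKM with vitamin D and 122 FPKM in control, and did not pass. Mest, high in growing fat cells, was wholly below control, at 0.856 to 2.67 against 3.06 to 7.26 FPKM in control (adjusted p = 0.116).

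Genes of brown fat and of mitochondrial fuel use followed the fat cell genes. Ppargc1a, the coactivator that drives mitochondrial gene programmes, had 16.8, 18.7, 53.1 and 7.79 FPKM with vitamin D, against 6.91, 3.34, 4.13, 2.17 and 5.47 FPKM in control. The groups did not overlap, and rat 38 was far above the rest (log2 difference 1.97, SE 0.43, adjusted p = 0.0845). Ucp1, the uncoupling protein that makes heat in brown fat, had 141, 120.4, 289 and 62.1 FPKM, against 68.3, 59.3, 107, 71 and 133 FPKM in control, and the groups overlapped (adjusted p = 0.367). Of 16 brown fat genes 15 had positive differences and 0 passed, with a median of 0.72. All 30 tested fatty acid oxidation genes had positive differences, with a median of 0.84, and none passed. Eci2, an isomerase of unsaturated fatty acid oxidation, was the member of that list without overlap (14.8 to 27 FPKM with vitamin D and 7.84 to 14.4 FPKM in control). That is 3.33% of the list, near the 2.37% of all tested genes wholly above control. The count was 17 of 30 without rat 39 and also without control rat 46, where 7.15% and 6.24% of all tested genes lay wholly above. Citrate cycle genes were positive in 27 of 28 (median 0.71) and respiratory chain genes in 67 of 69 (median 0.45), with 0 called in either list.

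Single rats set how far these lists separated. The mean log2 level of the brown fat list was 4.14 in rat 39, the lowest of the vitamin D group, and 4.78 in control rat 46, the highest of its group. All rats on vitamin D were above all control rats in 1 of 24 fat cell genes (2.37% of all tested genes), but in 12 without rat 39 and in 17 without control rat 46. The share of all tested genes wholly above control also grew without these rats, to 7.15% without rat 39 and to 6.24% without control rat 46. For the brown fat list that count was 1 of 16 with all rats, 9 without rat 39 and 4 without control rat 46, beside the same shares of all genes. Summed FPKM of the fat cell list ran over 4785 to 13901 with vitamin D and 3696 to 9456 in control. Pnpla2, a lipase that fat cells use, is listed at 0 in all 9 libraries, as are Elovl3 and Zic1 of the brown fat list. When the brown fat level entered limma as a covariate, 3 genes were called, 1 of them among the 13. The amount of fat left on each aorta was not measured, and its part in the fat gene differences was not tested.

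**Figure D2:**
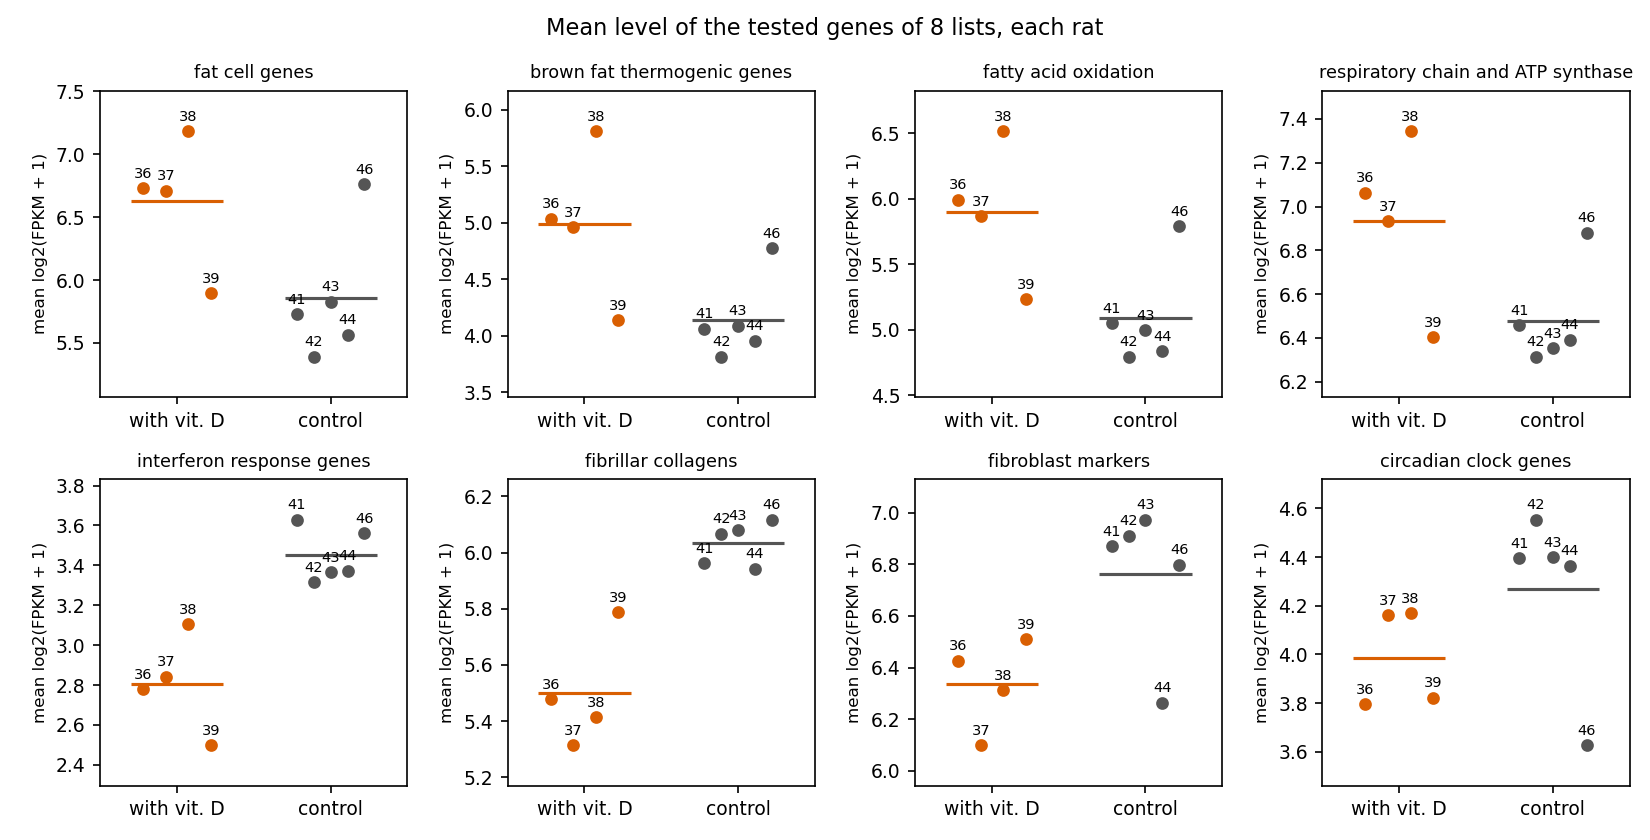
Mean log2(FPKM + 1) over the tested genes of 8 lists in each rat; numbers are rats, orange points control with vitamin D (4 rats), grey points control (5 rats), and lines group means. For fat and mitochondrial lists rat 39 lies with the control rats and control rat 46 with the vitamin D group, while the interferon and fibrillar collagen lists separate the groups.

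The machinery of vitamin D itself differed little. Of 39 listed genes with values, 21 were tested and 0 passed limma's test. In 1 of the 21, Spp1, all rats on vitamin D lay above control (2.37% of all tested genes) and in 2 below (3.34%), and the median difference was 0.03. Vdr, the receptor, was at 0.735, 2.12, 2.42 and 1.94 FPKM with vitamin D, against 1.93, 0.92, 0, 1.51 and 2.3 FPKM in control, near the filter on low values (log2 difference 0.33, SE 0.34, adjusted p = 0.645). Cyp24a1, the hydroxylase that vitamin D induces in kidney and gut, is listed at 0 in all 9 libraries. So are 10 of the 39 genes in all, Cyp24a1 included. As with Col1a2, a 0 can be a failed estimate, so for these genes absence and a missing estimate cannot be told apart. Cyp27b1, which activates the hormone, stayed under 1 FPKM in each and was not tested. Cyp27a1, which can make the precursor of the hormone, was wholly below control, at 5.18, 4.09, 4.85 and 5.26 FPKM with vitamin D against 8.01, 8.81, 9.94, 6.09 and 7.28 FPKM in control (adjusted p = 0.0923). Rxrg, a partner of the receptor, had 19.1, 14.9, 19.5 and 6.24 FPKM with vitamin D, against 2.92, 3.03, 5.37, 3.36 and 10.5 FPKM in control (adjusted p = 0.0931). Rats 36, 37 and 38 were above all control rats and rat 39 was not, the order seen in the fat genes. Both p21 and p27 inhibitors of the cell cycle are on the list. Cdkn1a (p21) averaged 59.5 ± 18.7 FPKM with vitamin D and 38.7 ± 5.36 FPKM in control (adjusted p = 0.144). Cdkn1b (p27) was wholly below control, at 21.8, 16.7, 21.5 and 26.8 FPKM against 35.4, 40.7, 33.4, 29.6 and 30.8 FPKM in control (adjusted p = 0.0854). Thbd (thrombomodulin) and Pthlh (the parathyroid hormone related peptide) differed by -0.41 and -0.75 on the log2 scale and did not pass.

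Bone-related genes split into a few that stood higher and a majority that did not. Sost, the secreted Wnt inhibitor of osteocytes, had 30.3, 24.4, 24 and 55 FPKM with vitamin D, against 4.29, 7.96, 19.4, 12.5 and 13.5 FPKM in control. Ibsp, bone sialoprotein, had 7.77, 9.7, 4.47 and 11.9 FPKM, against 3.16, 0.81, 3.72, 2.28 and 2.24 FPKM in control. Spp1, osteopontin, had 761, 3281, 627 and 789 FPKM, against 612, 383, 403, 458 and 359 FPKM in control. In each, all rats on vitamin D exceeded all control rats, but for Spp1 by a narrow gap and with rat 37 far above the other 3. None passed (adjusted p = 0.0871, 0.0835 and 0.144). Fn1, fibronectin, not on the bone list, also peaked in rat 37, with 384, 936, 298 and 381 FPKM, against 212, 176, 209, 206 and 157 FPKM in control (adjusted p = 0.0847). Of 13 tested bone genes 3 lay wholly above control (23.1%, against 2.37% of all tested genes), 1 wholly below (Sparc), and the median difference was -0.03. Runx2, the master transcription factor of osteoblasts, averaged 1.05 ± 0.487 FPKM with vitamin D and 1.33 ± 0.377 FPKM in control. Set beside the uremic rats on alfacalcidol, which share the control rats as their baseline, Sost averaged 33.4 ± 14.7 FPKM with vitamin D alone, 139 ± 61.2 FPKM in uremic rats and 11.5 ± 5.73 FPKM in control. Ibsp averaged 8.45 ± 3.14 FPKM with vitamin D alone, 69.8 ± 14 FPKM in uremic rats and 2.44 ± 1.1 FPKM in control. Spp1 averaged 1365 ± 1279.5 FPKM with vitamin D alone, 6552 ± 1833 FPKM in uremic rats and 443 ± 101 FPKM in control (SD, n = 4, 5 and 5).

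Calcification inhibitors and phosphate genes gave no call among 14 tested. Mgp, the matrix Gla protein that keeps arteries free of mineral, was the most abundant, at 11193, 17229, 11628 and 10871 FPKM with vitamin D and 12348, 8579, 9326, 12027 and 13394 FPKM in control (log2 difference 0.19, SE 0.24, adjusted p = 0.719). Without rat 37, the highest, the vitamin D rats lay within the control range. Nt5e, which makes adenosine from AMP, was wholly above control, at 13.4, 23.7, 16.7 and 13.8 FPKM against 12.7, 13, 11.8, 9.6 and 9.91 FPKM in control (adjusted p = 0.163). It was the 1 member of 14 without overlap, against 2.37% of all tested genes wholly above control, and its groups overlapped when all libraries were scaled to equal totals. The pyrophosphate transporter gene Ankh averaged 33 ± 11.6 FPKM with vitamin D and 25.4 ± 3.29 FPKM in control, and rat 37 was again the highest. Alpl, the phosphatase that degrades pyrophosphate, had 31.3, 18, 24.9 and 39.9 FPKM with vitamin D, against 43, 36, 39.2, 38 and 33.6 FPKM in control (log2 difference -0.45, SE 0.19, adjusted p = 0.232). Phospho1, a phosphatase of mineralising vesicles that brown fat also expresses, had 29.3, 20.5, 52 and 12.9 FPKM, against 10.8, 9.4, 11.8, 10.4 and 24.9 FPKM in control, in the rat order of the fat genes (adjusted p = 0.189).

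**Figure D3:**
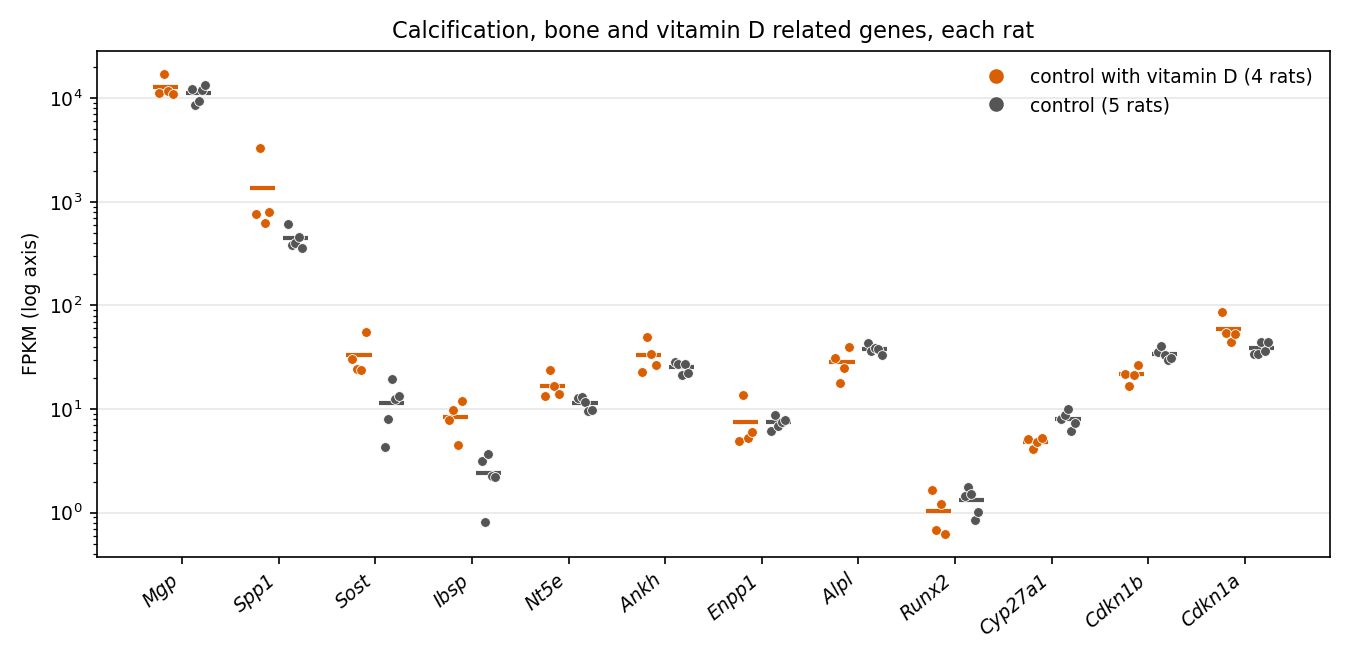
FPKM of each rat, on a log axis, for 12 calcification, bone and vitamin D related genes in control with vitamin D (orange, 4 rats) and control (grey, 5 rats); bars are means. Sost, Ibsp, Spp1 and Nt5e do not overlap with vitamin D above (for Nt5e not under equal totals), Cyp27a1 and Cdkn1b do not overlap with vitamin D below, and rat 37 is the high point for Mgp, Spp1, Ankh and Enpp1.

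Interferon response genes were lower with vitamin D in nearly every member tested. Type I interferon acts through transcription factors that bind the interferon-stimulated response element. Its targets restrict viruses or amplify the response. Of 29 tested members 28 had negative differences and the median was -0.56, against 0.0002 over all genes. None was called, but 14 of 29 (48.3%) lay wholly below control, against 3.34% of all tested genes, and none wholly above. The count stayed at 14 under both other scalings and was 14 to 18 with any 1 rat left out, where 3.82% to 6.38% of all tested genes lay wholly below.

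Irf7, the transcription factor that amplifies interferon production, had 5.37, 4.42, 6.93 and 1.82 FPKM with vitamin D, against 15.8, 7.67, 19.4, 10.4 and 11.4 FPKM in control (log2 difference -1.34, SE 0.31, adjusted p = 0.0854). Ifit1, which binds viral RNA, had 3.5, 4.01, 6.3 and 4.27 FPKM, against 10.6, 7.68, 9.65, 9.08 and 12.4 FPKM in control (log2 difference -0.99, SE 0.18, adjusted p = 0.0624). Mx2, a dynamin-like antiviral GTPase, had 11.4, 13.9, 23.7 and 4.78 FPKM, against 32.9, 33.2, 29.4, 34 and 42.3 FPKM in control (log2 difference -1.46, SE 0.32, adjusted p = 0.0845). In all 3 the groups stayed apart, and rat 39 was lowest for Irf7 and Mx2. Oas1b and Oasl2, of the oligoadenylate synthetase family that senses double-stranded RNA, averaged 2.73 ± 1 and 6.42 ± 2.27 FPKM with vitamin D, and 7.35 ± 2.61 and 12.3 ± 1.82 FPKM in control. Levels were low: Oas1b had a median of 12 recovered reads per library with vitamin D and 30 in control. Cxcl9, a chemokine induced by interferon gamma and not on the list, was also wholly below control, at 7.45, 13.9, 11.1 and 7.15 FPKM with vitamin D against 21.4, 16.4, 14.7, 24.7 and 22.1 FPKM in control (adjusted p = 0.0845); its groups overlapped with equal totals.

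RefSeq promoters (GRCr8) were given for 20 of the 29 genes, and the response element lay in most of them. Those of 3 members that lay wholly below control, Irf7, Oas1b and Oasl2, show where it lies.
Irf7, chr1:205799974-205800273, minus strand: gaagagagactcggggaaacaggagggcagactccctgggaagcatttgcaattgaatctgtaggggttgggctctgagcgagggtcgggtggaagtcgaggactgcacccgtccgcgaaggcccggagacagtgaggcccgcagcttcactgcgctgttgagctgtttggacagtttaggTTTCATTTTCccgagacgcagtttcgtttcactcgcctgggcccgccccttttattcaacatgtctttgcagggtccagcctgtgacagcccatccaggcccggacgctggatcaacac
Oas1b, chr12:41395803-41396102, minus strand: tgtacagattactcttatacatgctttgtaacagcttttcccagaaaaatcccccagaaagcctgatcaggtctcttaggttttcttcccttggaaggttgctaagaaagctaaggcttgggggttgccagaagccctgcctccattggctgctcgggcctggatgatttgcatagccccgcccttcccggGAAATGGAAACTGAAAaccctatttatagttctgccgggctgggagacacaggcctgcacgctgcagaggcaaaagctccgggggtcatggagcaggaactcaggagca
Oasl2, chr12:47383136-47383435, minus strand: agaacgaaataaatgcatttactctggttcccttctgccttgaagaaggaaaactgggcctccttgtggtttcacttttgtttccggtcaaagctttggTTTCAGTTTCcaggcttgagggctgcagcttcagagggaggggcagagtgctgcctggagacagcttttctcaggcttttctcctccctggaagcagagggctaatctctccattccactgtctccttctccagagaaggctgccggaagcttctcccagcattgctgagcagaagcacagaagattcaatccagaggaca
The capitals mark the element as searched on both strands: GAAA, then any 2 bases, then GAAA once more, which reads as TTTC on either side of 2 bases on the other strand. It begins at -69 from the transcription start in Irf7, at -151 in Oasl2, and at -59 in Oas1b, where a second match at -53 overlaps the first. A match was present in 14 of the 20 promoters (70%), against 2.83% of the 7212 promoters of tested genes and 3.92% of all 33469. Among list members wholly below control it was in 7 of 9, and among those whose groups overlapped in 7 of 11. The match is a description of these windows, not a binding site.

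**Figure D4:**
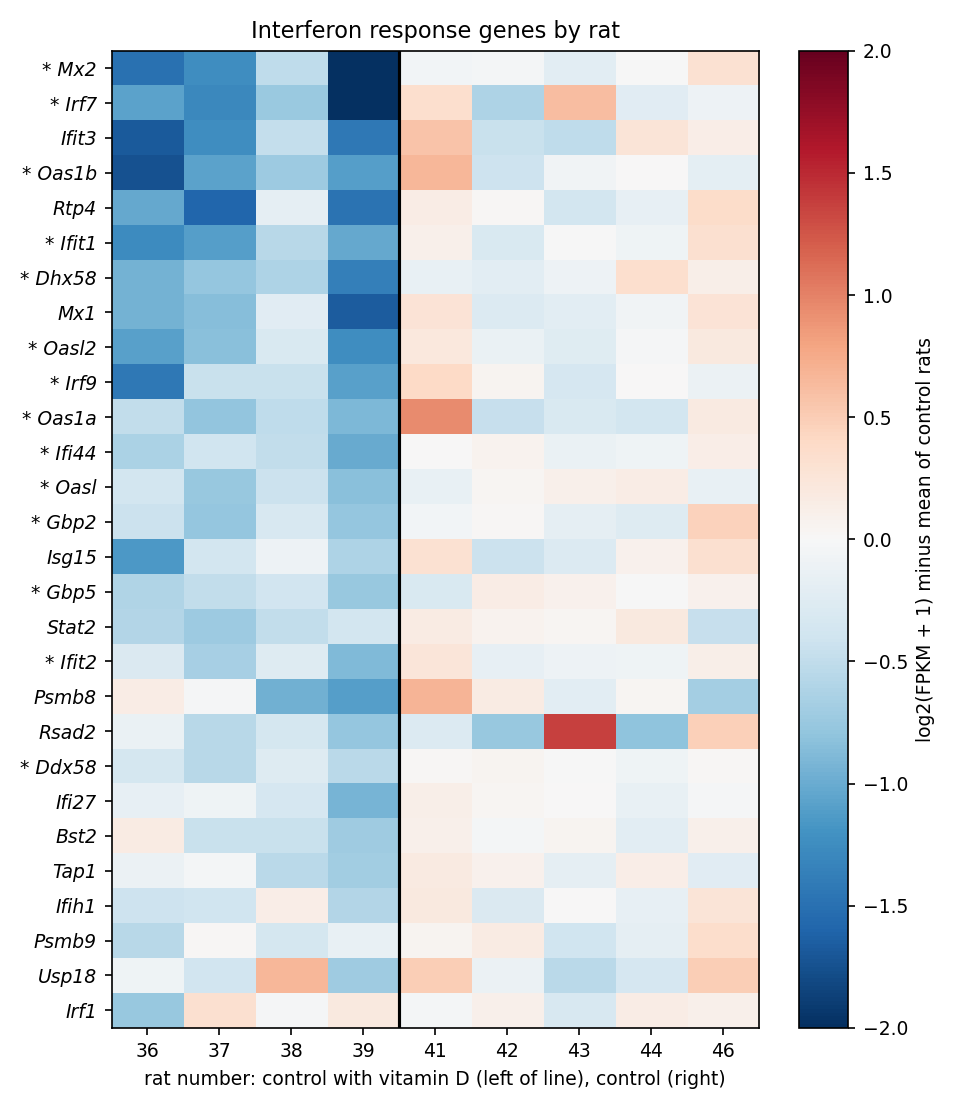
Log2(FPKM + 1) of 28 of the 29 interferon response genes in each rat, relative to the mean of the 5 control rats; columns left of the line are control with vitamin D (4 rats), right of it control (5 rats), and asterisks mark genes without overlap. The 4 columns of the vitamin D group are blue in most genes, palest in rat 38, and the colour scale ends at -2 and 2.

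Macrophage genes lay close to control. Of 20 tested macrophage genes 0 passed and 0 were without overlap, with a median difference of -0.09, and their summed FPKM ran over 148 to 264 with vitamin D and 127 to 293 in control. Marco is listed at 0 in all 9 libraries. Only 2 of 25 lymphocyte genes in the table passed the filter on low values, and Cd3e and Cd3d of T cells were among those that did not. Endothelial genes were lower on average, with 19 of 22 negative, a median of -0.29 and 0 called. Pecam1 was wholly below control by a narrow gap, at 74.6, 67.3, 69.1 and 47.6 FPKM with vitamin D against 76.3, 76.4, 88.9, 99.6 and 103 FPKM in control (adjusted p = 0.15). It was the 1 member of 22 without overlap (4.55%), near the 3.34% of all tested genes wholly below control. Robo4 is listed at 0. The summed endothelial level was 275 to 457 FPKM with vitamin D and 402 to 486 FPKM in control, lowest in rat 39, which was also lowest for the interferon list. Rat 37, at 457 FPKM, lay above control rats 41, 42 and 43 (402, 425 and 445 FPKM) in the endothelial sum. Its mean log2 level of the interferon list was 2.84, below the 3.32 to 3.63 of the control rats. The part of endothelial content in the interferon differences was not tested.

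Contractile smooth muscle genes were slightly lower on average. Of 25 tested genes 0 passed, 21 had negative differences, and the median was -0.20. Wholly below control lay 1 of 25 (4%), against 3.34% of all tested genes. Without rat 39 that count was 5 of 25, where 6.28% of all tested genes lay wholly below. Myh11, smooth muscle myosin, had 2781, 1638, 2878 and 3274 FPKM with vitamin D, against 3637, 2978, 3229, 4439 and 3439.9 FPKM in control (log2 difference -0.46, SE 0.22, adjusted p = 0.293), with rat 37 the lowest. Acta2 differed by -0.07 (SE 0.22). Nerve and Schwann cell genes had 2 of 11 members wholly below control (3.34% of all tested genes) and none called; 1 of 11 was left with equal totals and with median-of-ratios scaling. Pmp22, a gene of peripheral myelin, had 109, 80.2, 117 and 126 FPKM with vitamin D, against 163, 161, 138, 126 and 151 FPKM in control, without overlap but by a narrow gap that closed under both of these scalings.

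Immediate early genes, which respond within minutes to growth factors, stretch or handling, were lower on average but scattered. Of 26 tested AP-1 and related genes 1 fell (Jund), none rose, 18 had negative differences and the median was -0.52. Fos had 99.7, 116, 53 and 43.1 FPKM with vitamin D, against 466, 70.2, 222, 227 and 118 FPKM in control, and control rat 42 lay within the range of the rats on vitamin D. Egr1 had 200.4, 475, 282 and 218 FPKM, against 1261, 534, 506, 436 and 272 FPKM in control, where rat 41 stood apart. Neither passed (adjusted p = 0.171 and 0.22). Fosl1 went the other way, at 2.71, 8.97, 1.93 and 1.67 FPKM with vitamin D against 0.648, 1.32, 2.02, 0.265 and 0 FPKM in control (adjusted p = 0.149), with rat 37 highest.

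Clock genes differed widely between rats of the same group. Arntl, the partner of Clock that peaks at the opposite phase to the Per genes, had 20.4, 1.94, 4.4 and 23.5 FPKM in rats 36 to 39, against 0.723, 1.47, 3.06, 0.148 and 14.4 FPKM in control rats 41 to 46. Dbp, a direct target of that pair, had 13.9, 106, 69.1 and 14.1 FPKM with vitamin D, against 326, 382, 153, 363 and 14.4 FPKM in control. Rats 36, 39 and control rat 46 were high in Arntl and low in Dbp, and the others were lower in Arntl and higher in Dbp. Per2, a repressor in the loop, averaged 35.2 ± 6.11 FPKM with vitamin D and 59.4 ± 19.8 FPKM in control and had the smallest p of the list (adjusted p = 0.149), followed by Clock (adjusted p = 0.151). None of 15 tested clock genes passed. The hour at which each rat was killed is not given in the sources used here. Its part in the differences was not tested.

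Among the largest differences, several genes lay wholly above or wholly below control without passing limma's test. Mreg, melanoregulin of pigment and phagocytic organelles, had 6.4, 8.2, 12.6 and 5.52 FPKM with vitamin D, against 0, 0.971, 2.98, 0 and 3.35 FPKM in control. Dhrs9, a retinol and steroid dehydrogenase, had 9.43, 8.25, 14.1 and 6.06 FPKM, against 1.54, 0.575, 3.23, 1.08 and 4.64 FPKM in control. Angptl4, an inhibitor of lipoprotein lipase, had 19.3, 10.2, 15.7 and 8.79 FPKM, against 1.75, 3.73, 3.38, 3.34 and 8.59 FPKM in control, where rat 39 and control rat 46 nearly met. Cxcl14, a chemokine of epithelia and fat, had the smallest adjusted p of these, at 14.2, 14, 25.9 and 9.32 FPKM against 5.34, 3.49, 3.57, 6.83 and 4.02 FPKM in control (log2 difference 1.52, SE 0.26, adjusted p = 0.0529). On the lower side Adh1, an alcohol and retinol dehydrogenase, had 14.6, 6.62, 19.8 and 15.9 FPKM with vitamin D, against 48.2, 51.9, 37.1, 31.6 and 20.9 FPKM in control. Fam132a, a secreted protein of the C1q family, averaged 2.17 ± 1.25 FPKM with vitamin D and 7.41 ± 2.09 FPKM in control. Itgb1bp2 (melusin), a muscle protein that binds integrin beta 1, averaged 8.82 ± 4.06 FPKM with vitamin D and 20.6 ± 7.06 FPKM in control. Adjusted p of these 7 genes was between 0.0529 and 0.0905.

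**Figure D5:**
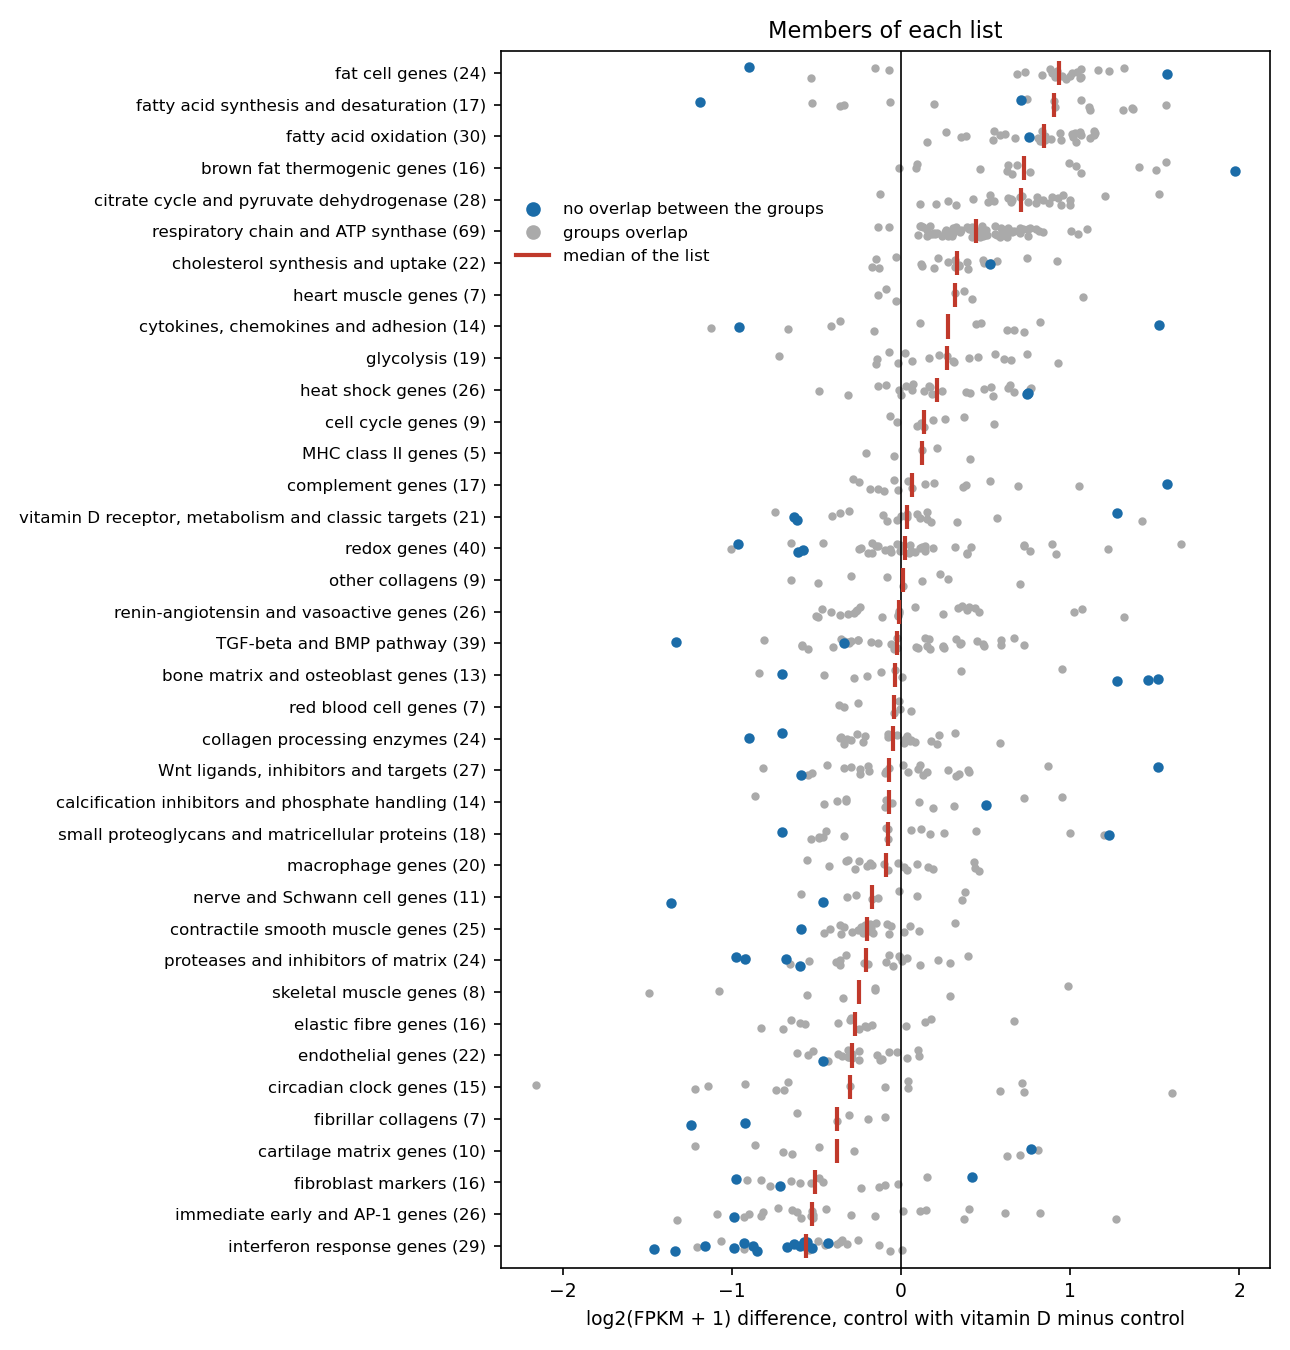
Difference in log2(FPKM + 1), control with vitamin D minus control, of every tested gene (points) of the lists with 5 or more tested genes; blue points have no overlap between groups, grey points overlap, and red bars are list medians. Numbers in brackets count tested genes. Fat and mitochondrial lists lie right of 0 with few blue points, and the interferon list lies left of 0 with 14 blue points.

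The authors' deposited table has a q value under 0.05 for 883 of the tested genes (9.11%), 522 higher (5.39%) and 361 lower (3.72%) with vitamin D. Of the 13 genes called by limma 10 are among them. The exceptions in the authors' deposited table are Tnxa-ps1 (q = 0.181), Fads2 (q = 0.429) and Cfd (q = 0.356). The deposited loci of these hold 16, 6 and 16 genes, against 2 for Rcor2 and 1 for the other called genes. Just inside the filter on low values were 160 genes with at least 1 FPKM in exactly 4 of the 9 libraries, and just outside it 168 genes in exactly 3.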

How the data were processed

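RNA of whole dissected aortas, selected for poly(A) tails, was sequenced from 14 rats, of which 9 are used here. The submitters' processing notes name rn5 as genome build and, as tools, Cuffdiff, Cufflinks (2.1.1), TopHat2 (2.0.10) and cutadapt (1.3); settings are not given in the sources used here. The deposited table names no unit; FPKM is inferred from the authors' tools and from the values. Its q values (p-values the authors adjusted over genes) served for comparison only. For 96.8% of genes with values above 0 in 8 or more libraries (10928 of 11294), FPKM were whole multiples of 1 read within 0.1 read (0.1% of 1000 genes after shuffling of libraries), and these reads give the depths stated. A spreadsheet had changed 25 gene names to dates, and no such gene is named.

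Fits were made in limma 3.58.1 under R 4.3.3; tables, permutation tests and plots came from pandas 2.3.3, scipy 1.17.1 and matplotlib 3.10.9 under Python 3.11.15. Limma, with a mean-variance trend, compared log2(FPKM + 1) of genes at 1 FPKM or more in 4 or more of the 9 libraries, 2-sided, and genes were called at an adjusted p under 0.05 over all 9693 genes; every adjusted p is limma's. Such differences understate the change of low genes. The fit was tested on simulated data. P-values measure the spread between rats, 1 library each. The genes compared and the 39 gene lists were chosen with earlier results of these data known, so list counts are descriptions and carry no test. Named genes are all called genes, the 12 largest differences in each direction without overlap, at an unadjusted p under 0.05 and a mean of 5 FPKM or more in the higher group, the smallest p in each list, 4 genes at most (12 in the lists on vitamin D, calcification, bone, fibrillar collagens, fat and brown fat, desaturation, AP-1 and clock genes), and a fixed set including Vdr, Mgp and Acta2. Genes outside this rule (Enpp1 and those listed at 0 or under the filter) were picked after their values were seen. Alternatives were other pseudocounts, filters, scalings and fits, a brown fat covariate and each rat left out. A few genes are not reported here; they stay in the counts.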

Additional observations from a re-analysis of the deposited data

Results flagged for a closer look

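In 14 of 158 groups of 4 or 5 rats examined for 79 genes, 1 rat stood apart from the rest of its group by Dixon's criterion. The criterion flags about 1 in 20 groups when values are independent and normally distributed. These FPKM come from chosen genes in the same few rats, so the 14 cannot be read against that rate. Rat 37 of the vitamin D group was the high rat for Spp1 (3281 FPKM, next 789 FPKM), Fn1 (936 FPKM, next 384 FPKM), Mgp (17229 FPKM, next 11629 FPKM), Enpp1 (13.8 FPKM, next 5.97 FPKM) and Fosl1 (8.97 FPKM, next 2.71 FPKM). Rat 39 of that group was the low rat for Slc25a1 (23.1 FPKM, next 33.4 FPKM). Control rat 46 was the high rat for Plin1 (477 FPKM, next 212 FPKM), Gpd1 (434 FPKM, next 220 FPKM), Phospho1 (24.9 FPKM, next 11.8 FPKM), Angptl4 (8.59 FPKM, next 3.73 FPKM) and Arntl (14.4 FPKM, next 3.06 FPKM). Control rat 44 was high for Rcor2 (63.2 FPKM, next 42.2 FPKM) and low for Col3a1 (1223 FPKM, next 1557 FPKM). Control rat 41 was high for Egr1 (1261 FPKM, next 534 FPKM).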

How the results depend on the processing

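The 13 calls became 10 with a pseudocount of 0.1 or 0.01, 13 with equal totals, 14 with median-of-ratios scaling, 18 at a mean of 5 FPKM or more, 14 in a fit of all 14 libraries, 12 with robust variances and 10 with voom on the recovered reads. They became 3 with no filter on low values, 8 with quantile normalization, 429 with array weights and 3 with the brown fat covariate (808 genes at an unadjusted p under 0.05). With 1 rat left out they ranged from 0 (without control rat 41 or rat 37 of the vitamin D group) to 393 (without rat 39), and were 378 without control rat 46. All 13 genes were among the 393, the 378 and the 429. Over 16 settings Tnxa-ps1 kept its call in 13, Rcor2 in 11, Col1a1 and Col3a1 in 7 each and Cfd in 5. With equal totals the 554 genes without overlap became 528, split 270 above and 258 below in place of 230 and 324. They ranged from 664 (without control rat 42) to 1302 (without rat 39), with 936 without rat 36 and 1223 without control rat 46. Some signs turned. With the brown fat covariate Phospho1 was at -0.093, Ucp1 at -0.42, Acta2 at 0.039 and Col5a2 at 0.030. Ucp1 is on the brown fat list whose mean level is the covariate, so the loss of its difference is in part built in. With 1 rat left out, Acta2 lay between -0.176 (without rat 39) and 0.064 (without rat 37), above 0 also without control rat 41 (0.025), and Enpp1 between -0.395 (without rat 37) and 0.042 (without rat 36), above 0 also without rat 38 (0.018). The causes were not tested. No paired analysis was possible because the groups share no rat numbers. Depth limits low genes such as Nrep and Vdr most.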

Other observations

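Among lists not described above, heat shock genes had positive differences in 20 of 26 tested members, with a median of 0.21 and 0 called by limma. Hspa9, the chaperone of mitochondria, had 65.4, 54, 92.6 and 56.9 FPKM with vitamin D, against 31.9, 37.5, 44.2, 30.6 and 53.4 FPKM in control, without overlap (adjusted p = 0.0958). Hspa4l, of the Hsp110 family, had 3.44, 1.85, 2.86 and 2.77 FPKM with vitamin D, against 1.47, 1.13, 1.39, 0.85 and 1.22 FPKM in control, also without overlap (adjusted p = 0.0907). Both were the 2 of 26 members wholly above control (7.69%, against 2.37% of all tested genes). Redox genes were evenly split, with 20 positive and 20 negative differences among 40 and a median of 0.02; Tst is on that list and was the 1 member that fell. Gpx7, a peroxidase of the endoplasmic reticulum, was wholly below control, at 16.7, 18.6, 16.7 and 23.3 FPKM with vitamin D against 29.5, 31.2, 26.9, 31.1 and 26.5 FPKM in control (adjusted p = 0.0835). Wholly below control lay 3 of 40 redox genes (7.5%, against 3.34% of all tested genes), Tst and Gpx7 among them. Among 39 TGF-beta and BMP genes the median difference was -0.02 and 0 were called, and among 27 Wnt genes it was -0.07 with 0 called. Cholesterol synthesis genes had positive differences in 18 of 22, with a median of 0.33 and 0 called.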
